A study of Mus musculus with 4 samples.

Results

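Of the 3187 open chromatin peaks listed for 4 ATAC-seq libraries of mouse CD8+ T cells, 524 (16.4%) lay within 1000 bases of a span end of at least 2 different protein-coding genes, and these shared gene-end peaks are described here. They were set against the 1458 peaks that lay within 1000 bases of an end of exactly 1 protein-coding gene. The other 1205 peaks were farther from any gene end. The distance was taken from the peak to either end of a RefSeq gene span on build GRCm38 and was 0 where the peak covered that end, so the choice of peaks used position and no read count. ATAC-seq uses the Tn5 transposase, which cuts and tags DNA that is not wrapped in nucleosomes. All cells were splenic CD8+ T cells of OTI:Cas9 mice, which carry a transgenic T cell receptor and Cas9, and all were electroporated with complexes of 300 pmol guide RNA and 300 pmol Cas9 protein. The 2 sgPrdm12 libraries received the guide against Prdm12 and carry the genotype label Prdm12-ko, while the 2 sgNTC libraries received the sgNTC guide and carry the label Prdm12-wt. Replicate 1 of each group was labelled batch 1 and replicate 2 batch 2. Whether replicates came from different animals or cultures is not in the labels. The p-values describe the variation among these 4 libraries alone, and it may be technical.

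Neighbouring genes are often transcribed away from a common stretch of DNA, an arrangement called a bidirectional or divergent promoter. Such promoters are usually rich in CpG dinucleotides, often lack a TATA box and commonly drive genes that most cells use, such as those for mitochondrial proteins, translation, RNA processing and DNA repair. Prdm12, the targeted gene, encodes a PR domain zinc finger protein known for its part in forming sensory neurons that detect pain.

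The sequences of 7 shared peaks are given first, because the values at these pairs are described further on. Each run is the plus strand between the nearest listed starts of a pair of genes on opposite strands, from the RefSeq promoter table of build GRCm38.p6. In 6 of the 7 the run lies outside the RefSeq spans of both genes, and 2 bases of the Eif3k to Map4k1 run fall within a span. The first gene of each name is read leftward and the second rightward. Capitals mark every match, on either strand, to a short list of promoter motifs. The GC box of SP and KLF factors was searched as GGGCGG, and the core of the ETS family as CCGGAAG. The NRF1 core was searched as GCGCATGCG, and the box of the factor NF-Y as CCAAT. For YY1 the letters were AAGATGGCG, and for ZBTB33 they were the palindrome CTCGCGAGA. The cyclic AMP response element, or CRE, was searched as TGACGTCA, and the site of the AP-1 factors as TGANTCA. The core of the RUNX factors, which act in T cells, was TGTGGTT, and the TATA box was TATAAA. A match is a description of letters and not a measured binding site. The first 2 runs belong to peaks with a small unadjusted p among those higher in sgPrdm12 libraries and the next to one among those lower. The last 4 belong to pairs that hold a gene of DNA repair, the respiratory chain, the proteasome or the mitochondrial ribosome. They are examples and do not show how common each motif is. Among 169 stretches between starts, NRF1 was found in 9 (5.33%) and the ZBTB33 palindrome in 5 (2.96%). The ETS core was found in 38 (22.5%), the GC box in 85 (50.3%) and the CCAAT box in 61 (36.1%). No ETS match lies in the runs shown here.
Brca1 to Nbr1: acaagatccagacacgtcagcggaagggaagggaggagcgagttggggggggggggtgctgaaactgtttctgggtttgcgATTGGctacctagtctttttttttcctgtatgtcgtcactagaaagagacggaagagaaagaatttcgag
Tsacc to Cct3: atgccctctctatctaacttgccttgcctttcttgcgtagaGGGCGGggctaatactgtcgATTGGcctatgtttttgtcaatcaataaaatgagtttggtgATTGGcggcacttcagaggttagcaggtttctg
Eif3k to Map4k1: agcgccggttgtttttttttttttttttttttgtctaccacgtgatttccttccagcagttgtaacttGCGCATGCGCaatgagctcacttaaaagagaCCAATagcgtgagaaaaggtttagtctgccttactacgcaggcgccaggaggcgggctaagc
Polh to Xpo5: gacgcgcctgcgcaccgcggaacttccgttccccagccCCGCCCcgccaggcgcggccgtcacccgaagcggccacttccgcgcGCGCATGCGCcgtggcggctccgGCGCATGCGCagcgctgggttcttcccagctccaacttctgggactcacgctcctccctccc
Vmac to Ndufa11: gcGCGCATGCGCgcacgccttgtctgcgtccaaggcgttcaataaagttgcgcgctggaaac
Atp5pb to Wdr77: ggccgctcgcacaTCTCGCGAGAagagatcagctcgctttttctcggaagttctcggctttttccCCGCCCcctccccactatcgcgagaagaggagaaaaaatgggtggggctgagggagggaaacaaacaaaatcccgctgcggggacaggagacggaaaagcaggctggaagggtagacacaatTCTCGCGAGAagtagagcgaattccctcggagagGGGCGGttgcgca
Mrpl32 to Psma2: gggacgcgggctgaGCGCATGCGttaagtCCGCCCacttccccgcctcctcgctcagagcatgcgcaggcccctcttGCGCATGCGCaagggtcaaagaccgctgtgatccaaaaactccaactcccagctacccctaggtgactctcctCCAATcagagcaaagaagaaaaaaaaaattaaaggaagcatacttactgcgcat

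The Brca1 to Nbr1 stretch of 151 bases lay at chr11:101551956-101552106 and held 1 CCAAT box, and 91 of its bases lay in the peak. The other 6 stretches lay wholly inside their peaks. The Tsacc to Cct3 stretch of 135 bases lay at chr3:88297000-88297134 and held 2 CCAAT boxes and 1 GC box. The Eif3k to Map4k1 stretch of 161 bases, chr7:28981889-28982049, held 2 NRF1 matches, counted over both strands, and 1 CCAAT box. The Polh to Xpo5 stretch of 169 bases, chr17:46202642-46202810, held 4 NRF1 matches and 1 GC box. The Vmac to Ndufa11 stretch, chr17:56717700-56717761, was only 62 bases long and held 2 NRF1 matches. The Atp5pb to Wdr77 stretch of 234 bases, chr3:105959264-105959497, held 4 matches to the ZBTB33 palindrome and 2 GC boxes. The Mrpl32 to Psma2 stretch of 204 bases, chr13:14613038-14613241, held 3 NRF1 matches, 1 GC box and 1 CCAAT box. None of the 7 held a TATA box match.

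By strand, most of the shared peaks were at paired starts, but not all. A strand was listed for 889 of the 1046 genes at these peaks, and 393 of the 509 peaks with 2 genes had both strands known. Of these 393, 330 (84.0%) had both 5′ ends within the limit on opposite strands, 57 had the start of one gene and the end of the other, 6 had both starts on the same strand and 0 had only ends. The name of a shared promoter therefore holds only as nearness to both starts for the 330 and the 6 peaks, and not for the 57. Of the 330 peaks, 161 covered both starts. Another 15 peaks had 3 genes, and strand was missing for a gene at 121 peaks. In the whole annotation, 903 opposite-strand pairs had 5′ ends within 1000 bases of each other. Their genes were 1795 of 17491 with a listed strand (10.3%). This limit is between the starts, while that of the 330 peaks is from the peak to each start, so the definitions differ. Among the 2007 genes whose start had a peak, 666 (33.2%) were of this kind. A peak was thus listed at the start of 37.1% of the genes in opposite-strand pairs and of 8.54% of the other genes. Both genes of a pair count for 1 peak, and the other genes include many that are used in few tissues, so these shares are a description.

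Most of the opposite-strand peaks were centred near the midpoint of the starts. In the 330 opposite-strand peaks the plus-strand start minus the minus-strand start had a median of 62.5 bases, with quartiles at -103.5 and 169.5. In 216 peaks (65.5%) the spans lay apart, and in 114 they overlapped at their 5′ ends. Because a span runs to the outermost transcript, a pair such as Tcp1 and Mrpl18 overlaps by span while its nearest listed starts lie 237 bases apart. The peak covered both starts in 161 cases, 1 start in 112 and neither in 57, with median widths of 536, 425 and 314 bases. Covering more starts and being wider go together by construction. The peak centre lay within 250 bases of the midpoint of the starts in 255 of 330 peaks, with a median distance of 113 bases. This nearness follows in part from the choice of peaks within 1000 bases of both starts. It was not compared with the position of 1-gene peaks. Near the limit of 1000 bases, Tcp1/Mrpl18 (second gene at 991 bases), Usf1/Arhgap30 (984) and Cactin/Pip5k1c (974) were just inside. Peaks at Atp5e (Prelid3b at 1020 bases), Insm2 (Ralgapa1 at 1026) and 2810006K23Rik (Mphosph9 at 1031) were just outside. Just inside, Tcp1/Mrpl18 held 20 and 13 reads in the sgPrdm12 libraries and 8 and 22 in the sgNTC libraries. Usf1/Arhgap30 held 8 and 2 reads in sgPrdm12 against 8 and 27 in sgNTC, and Cactin/Pip5k1c held 17 and 12 against 14 and 23. Just outside, the Atp5e peak held 4 and 7 reads in sgPrdm12 against 0 and 1 in sgNTC. The Insm2 peak held 0 and 0 against 8 and 4, and the 2810006K23Rik peak 11 and 16 against 15 and 34.

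**Figure D1:**
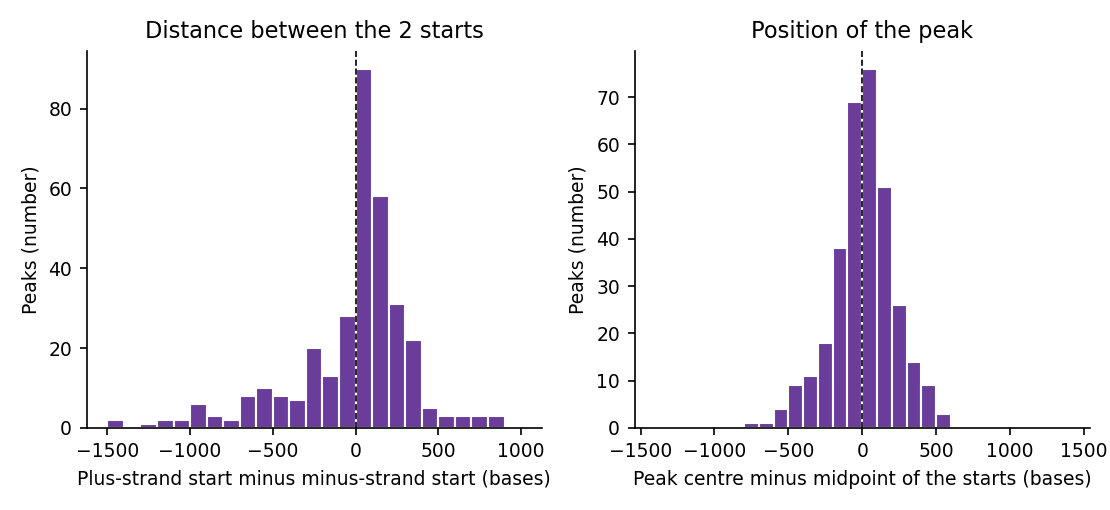
Histograms over the 330 shared peaks with both starts on opposite strands: left, the position of the plus-strand start minus that of the minus-strand start in bases (values above 0 mean that the spans lie apart); right, the peak centre minus the midpoint of the starts in bases. The left distribution has its median at 62.5 bases with a tail of overlapping spans below 0, and in the right one 255 peaks lie within 250 bases of the midpoint.

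In base composition the promoters at opposite-strand peaks were close to those at 1-gene starts and differed from the average promoter. Windows of 300 bases (250 before and 50 after a start) were available for 625 genes at opposite-strand peaks (629 windows), and their median CpG ratio, observed over expected, was 0.887. It was 0.861 in 1165 windows of genes with a 1-gene peak at their 5′ end and 0.567 over all 21262 windows of protein-coding genes. The median GC content was 62.7%, 63.3% and 56.3% in the same order. The ETS motif, bound by factors such as GABP, was found in 33.4% of the opposite-strand windows, in 23.3% of the 1-gene windows and in 11.6% of all windows. The NRF1 motif went the other way between the peak classes, with 5.88% of opposite-strand and 11.3% of 1-gene windows, against 2.35% of all windows. The GC box was in 70.0% of opposite-strand, 79.2% of 1-gene and 46.2% of all windows, and the CCAAT box in 45.9%, 47.1% and 38.2%. The TATA box was found in 3.50% of opposite-strand windows, 4.81% of 1-gene windows and 12.6% of all windows, and in 12.7% of the 55 windows at start-and-end peaks. The AP-1 motif was in 3.34% of opposite-strand windows, 3.43% of 1-gene windows and 6.99% of all windows. The RUNX motif was in 2.38%, 3.43% and 4.71% in the same order. Windows of paired genes overlap and share letters, and none of these shares was tested.

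The libraries held 29043 and 20427 reads in all peaks in sgPrdm12 replicates 1 and 2, and 28749 and 58068 in sgNTC replicates 1 and 2. The sgPrdm12 replicate 2 library stood apart, with 35.2% of its reads in peaks away from gene ends, against 25.8% to 30.0% in the other libraries, sgPrdm12 replicate 1 (26.5%) included. No gene-end peak belonged to Prdm12, so the edit could not be checked in these data. The cell label could not be checked either, since 0 of 10 CD8 T cell marker genes (Cd8a, Cd8b1, Cd3d, Cd3e, Cd3g, Cd247, Lck, Cd2, Zap70 and Lat) had a gene-end peak. Of the markers of other cell types, 1 of 3 for CD4 T cells (Zbtb7b) and 1 of 4 for erythroid cells (Tfrc) had a 1-gene peak, and the B cell (6), myeloid (6) and NK cell (3) markers had none.

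Shared peaks held more reads than 1-gene peaks in every library. The mean was 12.0 and 7.63 reads per shared peak in the sgPrdm12 libraries and 11.3 and 24.6 in the sgNTC libraries. A 1-gene peak held on average 10.3 and 6.34 reads in the sgPrdm12 libraries and 9.74 and 20.7 in the sgNTC libraries. The ratio of shared over 1-gene was 1.16 and 1.20 in the sgPrdm12 libraries and 1.16 and 1.18 in the sgNTC libraries, a mean log2 ratio of 0.24 and above 0 in 4 of 4 libraries. A two-sided exact sign-flip test over 4 libraries gave the smallest p it can give with so few, which is above 0.05. Shared peaks were also wider, with a median of 446.5 bases (quartiles 339.5 and 578) against 406 bases (320 and 532). Per kb of peak the ratio was 1.08 and 1.12 in the sgPrdm12 libraries and 1.08 and 1.10 in the sgNTC libraries (mean log2 ratio 0.13, with the same exact sign-flip p). Reads were present in all 4 libraries at 508 shared peaks (96.9%) and at 1374 1-gene peaks (94.2%). Peaks were called from these reads, so width, reads and being listed are not independent of each other.

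The difference was similar when like ends were compared. Peaks with both starts on opposite strands, per 10000 reads in all peaks, held on average 4.27 and 3.77 reads in the sgPrdm12 libraries and 4.08 and 4.32 in the sgNTC libraries. Peaks at the 5′ end of 1 gene held 3.63 and 3.13 in the sgPrdm12 libraries and 3.46 and 3.64 in the sgNTC libraries. Their ratio had a mean log2 of 0.25 and was above 0 in 4 of 4 libraries, again with the smallest p the exact sign-flip test allows. The 57 start-and-end peaks held 3.98 and 3.85 reads per 10000 in the sgPrdm12 libraries and 3.48 and 4.05 in the sgNTC libraries. Opposite-strand peaks were above start-and-end peaks in 3 of 4 libraries and below in sgPrdm12 replicate 2 (mean log2 ratio 0.10, exact sign-flip p = 0.25). By the median reads per peak they were above in 4 of 4 libraries, with a mean log2 ratio of 0.40 and the smallest p the test allows. Peaks at the 3′ end of 1 gene numbered only 18, with 1.19 and 2.18 reads per 10000 in the sgPrdm12 libraries and 1.87 and 1.08 in the sgNTC libraries.

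**Figure D2:**
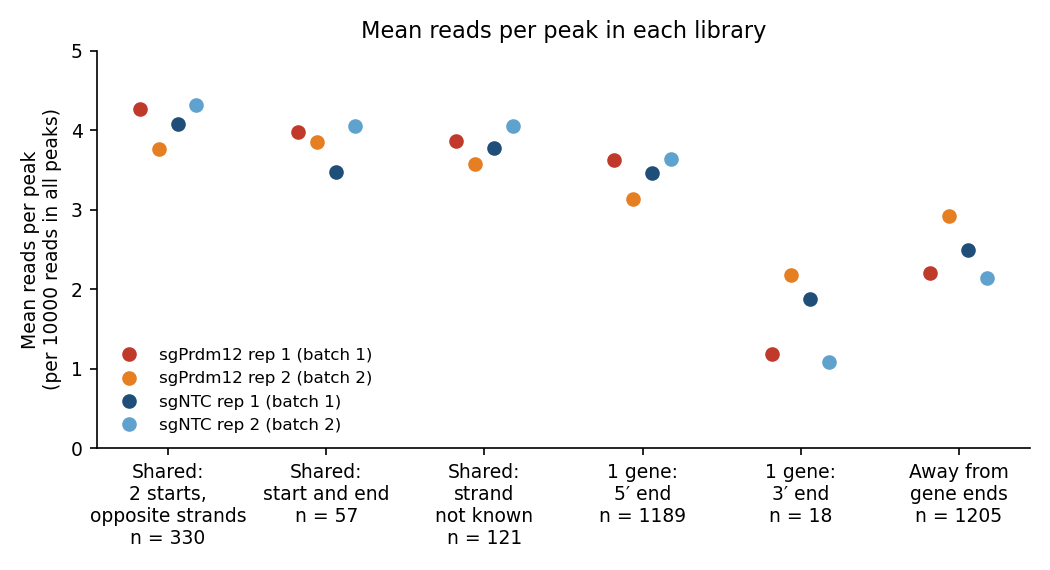
Mean reads per peak per 10000 reads in all peaks (y axis, linear from 0), 1 point per library, for 3 kinds of shared peak, for 1-gene peaks at a 5′ or 3′ end and for peaks away from gene ends. In all 4 libraries the opposite-strand shared peaks lie above the 1-gene 5′ end peaks, and sgPrdm12 replicate 2 is highest of the 4 libraries in the last 2 classes.

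The share of reads that fell in shared peaks did not differ between guides beyond the spread of the libraries. It was 21.7% (95% Wilson interval 21.2 to 22.1) and 19.6% (19.0 to 20.1) in sgPrdm12 replicates 1 and 2, and 20.6% (20.1 to 21.0) and 22.2% (21.8 to 22.5) in sgNTC replicates 1 and 2. The means were 20.6% ± 1.47 in sgPrdm12 and 21.4% ± 1.12 in sgNTC (SD, n = 2 each), a difference of -0.738 percentage points (two-sided exact permutation test, p = 0.667, where 0.333 is the smallest value possible). Within batch 1 the difference was 1.10 percentage points and within batch 2 it was -2.57, so the direction did not hold. Without sgPrdm12 replicate 2 the group difference was 0.301 percentage points, and without sgNTC replicate 2 it was 0.0573. The intervals cover counting error only, since reads without molecular identifiers are not independent molecules.

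Set against 1-gene peaks within the same library, the difference between batches was smaller. Shared peaks held 0.418 and 0.433 reads for each read in 1-gene peaks in the sgPrdm12 libraries, and 0.416 and 0.425 in the sgNTC libraries. The ratio of sgPrdm12 over sgNTC was 1.00 in batch 1 and 1.02 in batch 2. As a part of gene-end reads alone, shared peaks took 29.5% and 30.2% in the sgPrdm12 libraries and 29.4% and 29.8% in the sgNTC libraries, a difference of 0.226 percentage points. Against peaks away from gene ends the ratio of sgPrdm12 over sgNTC was 1.19 in batch 1 and 0.647 in batch 2.

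**Figure D3:**
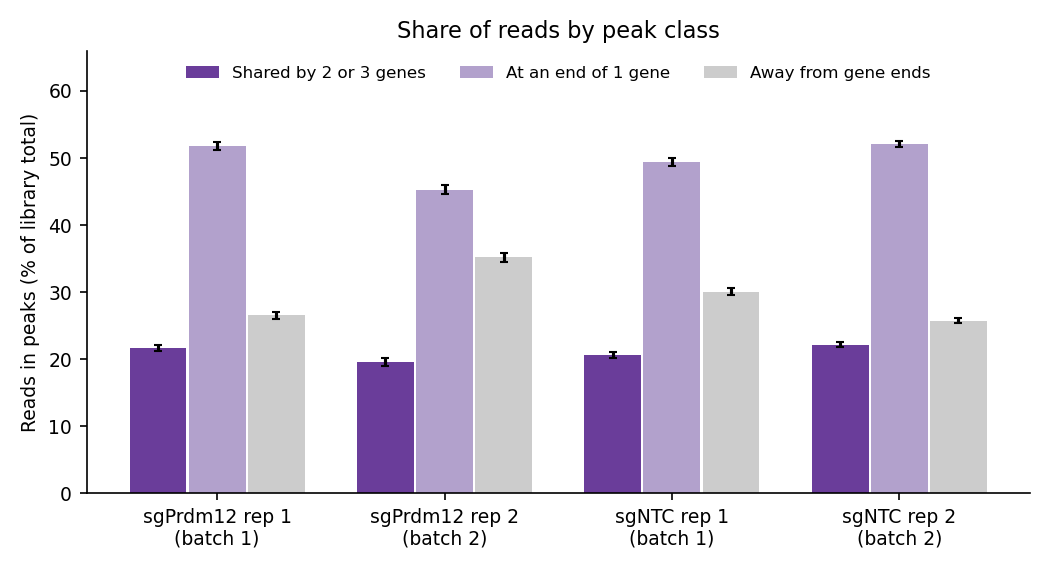
Percent of each library's reads in peaks (y axis, linear from 0) that fell in shared, 1-gene and other peaks, with 95% Wilson intervals as error bars. Shared peaks take between 19.6% and 22.2% of the reads, and the 2 gene-end classes are lowest in sgPrdm12 replicate 2, where peaks away from gene ends take 35.2%.

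The guides could not be told apart at any single shared peak after adjustment. A default filter on low counts kept 304 of the 524 shared peaks (58.0%) and 656 of the 1458 1-gene peaks (45.0%), so the tested peaks are those with more reads. Of 304 shared peaks, 0 were called at an adjusted p of 0.05 by edgeR (quasi-likelihood F test, Benjamini-Hochberg over all 1125 tested peaks), where 0% of all tested peaks were called. The smallest adjusted p among them was 0.806. At an unadjusted p of 0.05, edgeR gave 17 shared peaks (5.59%) against 5.07% of all tested peaks. Of the 17, 10 were higher in sgPrdm12 libraries (3.29%, against 3.02% of all tested peaks) and 7 were lower (2.30% against 2.04%). DESeq2 gave 0 at its adjusted threshold and 3 of 524 at an unadjusted p of 0.05 (0.573%), against 0.879% of all 3186 peaks it tested. These shares lie near those of all peaks. The median log2 fold change of tested shared peaks was 0.02 (quartiles -0.26 and 0.30), the median of all tested peaks was also 0.02, and the median standard error at shared peaks was 0.40. The 95% interval of the fold change stayed within 4-fold at 281 shared peaks (92.4%) and within 2-fold at 99 (32.6%). Changes of 2-fold at a single shared peak were therefore often not detectable at this depth.

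The batches gave little common pattern across the shared peaks. The log2 ratio of sgPrdm12 over sgNTC, after adding 0.5 to each count, was above 0 in both batches at 82 tested shared peaks (27.0%, against 26.8% of all tested peaks) and below 0 in both at 71 (23.4% against 22.8%). At 151 (49.7% against 50.4%) the sign differed. Across the 304 peaks the ratios of batch 1 and batch 2 had a Pearson correlation of 0.13, as a description over peaks that share libraries. Both sgPrdm12 libraries were above both sgNTC libraries at 54 shared peaks (17.8% against 16.4% of all tested), and below both at 55 (18.1% against 18%). The log2 ratio was over 1 in size with the same sign in both batches at 4 shared peaks (1.32%, against 0.8% of all tested peaks), namely Map4k1/Eif3k, Map4k2/Men1, Gnpat/2810004N23Rik and Ints9/Hmbox1. Each of these 4 passed the count filter only through the group where it was high. Their ratios are therefore a description and no support for a change.

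**Figure D4:**
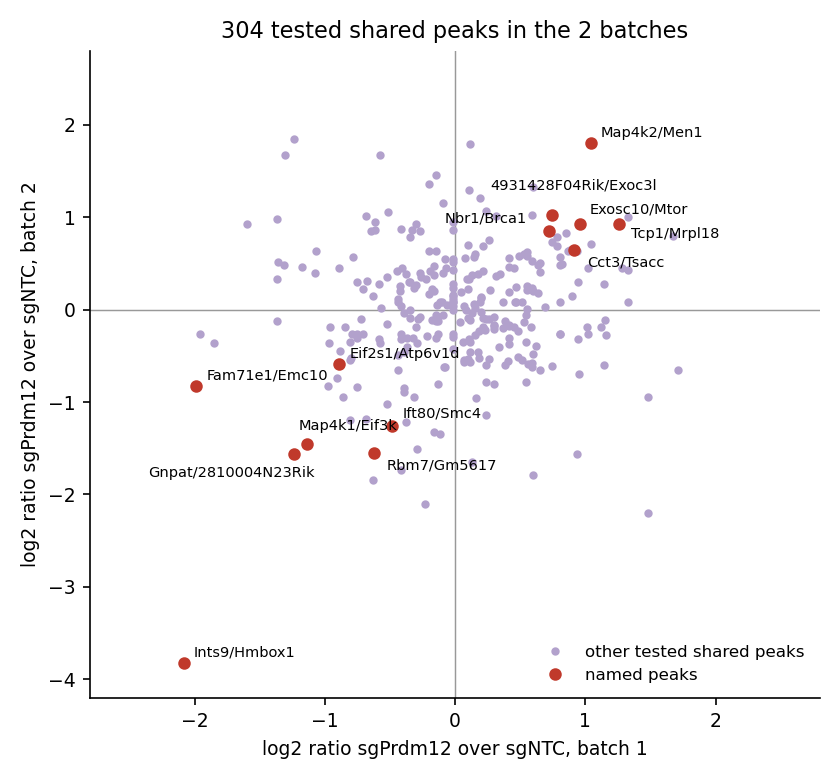
Log2 ratio of sgPrdm12 over sgNTC in batch 1 (x axis) and batch 2 (y axis) for the 304 tested shared peaks, 1 point per peak. The 13 red points are the named peaks, which were chosen by these same values, and the other peaks spread over all 4 quadrants, with 151 of the 304 peaks of opposite sign in the 2 batches.

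The 5 peaks with the smallest unadjusted p among those higher in sgPrdm12 libraries are described here without a call, since none passed. The peak at Nbr1, an autophagy receptor, and Brca1, a factor of homologous recombination, lay at chromosome 11, 101552016 to 101552591. It had 16.3 and 14.4 normalised reads per 10000 reads in tested peaks in the sgPrdm12 libraries and 9.77 and 8.06 in the sgNTC libraries. The groups did not overlap, and the log2 fold change was 0.83 ± 0.30 (SE; edgeR adjusted p = 0.853). Tcp1 encodes a subunit of the cytosolic chaperonin TRiC and Mrpl18 a protein of the mitochondrial ribosome. Their peak (chromosome 17, 12916217 to 12916796) had 10.2 and 10.4 normalised reads in the sgPrdm12 libraries and 4.12 and 5.54 in the sgNTC libraries, with 1.02 ± 0.37 on the log2 scale (edgeR adjusted p = 0.853). Another TRiC gene, Cct3, paired with the testis-expressed Tsacc (chromosome 3, 88296662 to 88297313), had 14.8 and 12.8 normalised reads in the sgPrdm12 libraries and 7.72 and 8.31 in the sgNTC libraries. Its log2 fold change was 0.78 ± 0.31 (edgeR adjusted p = 0.927). Thus the sgPrdm12 values of these peaks all lay above the sgNTC values, which is what choosing them by p brings with it. The peak at 4931428F04Rik and Exoc3l (chromosome 8, 105289248 to 105289629) had 9.68 and 9.60 normalised reads in the sgPrdm12 libraries and 5.66 and 4.79 in the sgNTC libraries (log2 fold change 0.91 ± 0.37, edgeR adjusted p = 0.927).

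The peak of Exosc10 and Mtor is one of the 57 that are not a shared promoter. Exosc10 encodes a nuclease of the RNA exosome and Mtor a kinase that controls cell growth, and both lie on the plus strand. The start of the Exosc10 span came 733 bases after the end of the Mtor span, and the peak (chromosome 4, 148558166 to 148558807) covered the start of Exosc10. The 250 bases before that start, chr4:148558169-148558418 on the plus strand, are shown as an example of a shared peak with a single start, with its NRF1 match in capitals.
Exosc10: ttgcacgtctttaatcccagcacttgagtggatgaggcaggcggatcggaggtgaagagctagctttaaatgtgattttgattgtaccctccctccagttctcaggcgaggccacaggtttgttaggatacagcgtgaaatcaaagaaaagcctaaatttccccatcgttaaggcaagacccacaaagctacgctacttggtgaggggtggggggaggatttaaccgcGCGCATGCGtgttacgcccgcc

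The Exosc10 peak had 12.2 and 10.4 normalised reads in the sgPrdm12 libraries and 6.17 and 5.54 in the sgNTC libraries. Both sgPrdm12 values were higher. On the log2 scale the fold change was 0.98 ± 0.39 (edgeR adjusted p = 0.927). By position this value belongs to the start of Exosc10 and to the region downstream of Mtor, not to the start of Mtor.

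Among the shared peaks lower in sgPrdm12 libraries, the smallest unadjusted p belonged to Fam71e1/Emc10 (chromosome 7, 44496004 to 44496493), where Emc10 encodes a subunit of the endoplasmic reticulum membrane protein complex. It held 6 and 6 reads in the sgPrdm12 libraries and 25 and 36 in the sgNTC libraries, or 3.06 and 4.80 against 12.9 and 9.07 normalised reads. The log2 fold change was -1.48 ± 0.46 (edgeR adjusted p = 0.806). Map4k1, a kinase that acts as a brake on signals from the T cell receptor, shares a peak with Eif3k, a subunit of a translation initiation factor (chromosome 7, 28981887 to 28982278). It had 4.08 and 2.40 normalised reads in the sgPrdm12 libraries and 9.26 and 7.56 in the sgNTC libraries (log2 fold change -1.25 ± 0.45, edgeR adjusted p = 0.853). Rbm7, which targets RNA to the nuclear exosome, and Gm5617 (chromosome 9, 48495087 to 48495796) had 4.58 and 2.40 against 7.20 and 8.06 normalised reads (log2 fold change -1.05 ± 0.45 by edgeR, adjusted p = 0.927). These 3 peaks rest on 3 to 9 reads in each sgPrdm12 library. They passed the count filter only through the sgNTC libraries, where they were high, so their direction is no support for a change.

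The other 2 lower peaks each held 15 reads in sgPrdm12 replicate 1. In sgPrdm12 replicate 2, Eif2s1/Atp6v1d held 13 reads and Ift80/Smc4 only 6. Eif2s1 encodes the alpha subunit of initiation factor eIF2 and Atp6v1d a subunit of the vacuolar proton pump. Their peak (chromosome 12, 78861753 to 78862241) had 7.64 and 10.4 normalised reads in the sgPrdm12 libraries and 14.4 and 16.1 in the sgNTC libraries (log2 fold change -0.82 ± 0.31, edgeR adjusted p = 0.927). Ift80, for transport in cilia, and Smc4, a condensin subunit (chromosome 3, 69004625 to 69005081), had 7.64 and 4.80 against 10.8 and 12.3 normalised reads (log2 fold change -0.85 ± 0.36 by edgeR, adjusted p = 0.927). At each of the 5 lower peaks both sgPrdm12 libraries, after normalisation, lay below both sgNTC libraries.

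**Figure D5:**
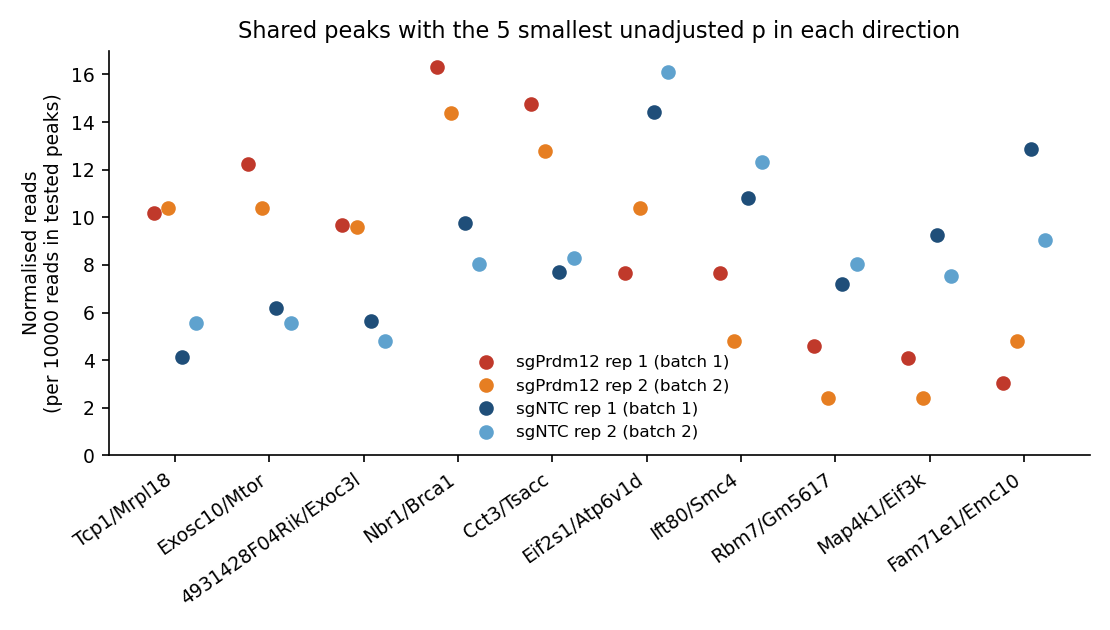
Normalised reads per 10000 reads in tested peaks (y axis, linear from 0) in each of the 4 libraries for 5 higher and 5 lower shared peaks chosen by unadjusted p, ordered by log2 fold change. The sgPrdm12 points lie above the sgNTC points at the 5 peaks on the left and below them at the 5 on the right, as their choice by p implies, and none passed the adjusted threshold.

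The 3 further peaks with a log2 ratio over 1 in both batches were low. Men1 encodes menin, a partner of MLL histone methyltransferases, and Map4k2 a protein kinase; their peak (chromosome 19, 6340559 to 6340996) lay at the start of Map4k2 and the end of Men1. It held 13 and 11 reads in the sgPrdm12 libraries and 6 and 10 in the sgNTC libraries. The log2 fold change was 1.45 ± 0.70 (edgeR adjusted p = 0.927). Gnpat, an enzyme of ether lipid synthesis, and 2810004N23Rik (chromosome 8, 124862842 to 124863264) had 4 and 2 reads against 10 and 23, which is -1.54 ± 0.94 as a log2 fold change (edgeR adjusted p = 0.968). The peak of Ints9, an Integrator subunit, and Hmbox1 (chromosome 14, 64949930 to 64950223) held 2 and 0 reads in the sgPrdm12 libraries and 10 and 22 in the sgNTC libraries (-3.02 ± 1.49, edgeR adjusted p = 0.927). In this last peak no read fell in sgPrdm12 replicate 2.

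Shared peaks were also looked up at a list of neighbouring gene pairs. This list was chosen with earlier results of these data known, so its share with a peak is not a rate for such pairs. Over the annotation, a peak was listed at the start of 37.1% of the genes in opposite-strand pairs, a share of genes and not of pairs. Of the 21 pairs in the list, 15 had a shared peak. By strand, 11 of these had both starts on opposite strands, 1 a start and an end (Exosc10/Mtor) and 3 a strand not known. The 6 pairs without a shared peak were Surf1/Surf2, Tk1/Afmid, Col4a1/Col4a2, Ddx5/Polg2, Sf3b1/Coq10b and Ndufs3/Kbtbd4. In purine synthesis, Ppat and Paics encode enzymes of the de novo pathway, and their peak (chromosome 5, 76951321 to 76951846) had 11.7 and 12.0 normalised reads in the sgPrdm12 libraries and 6.69 and 7.05 in the sgNTC libraries. Both sgPrdm12 values were higher, but the log2 fold change of 0.77 ± 0.36 did not pass (edgeR adjusted p = 0.927). In DNA damage signalling and histone gene control, Atm/Npat held 9 and 9 reads in the sgPrdm12 libraries and 9 and 28 in the sgNTC libraries. Replication and end joining share Mcm4/Prkdc, with 8 and 10 reads against 14 and 22. The DNA helicase gene Wrn shares a peak with Purg, with 15 and 8 reads against 9 and 26, and the splicing gene Snrpd2 with Qpctl, with 20 and 14 reads against 20 and 42. These raw counts come from libraries of unequal depth, and 58068 reads in sgNTC replicate 2 is the largest total.

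Antigen processing, which CD8 T cells depend on in the cells they recognise, has the pair Tap1, a peptide transporter, and Psmb9, an immunoproteasome subunit. Their peak held 12 and 1 reads in the sgPrdm12 libraries and 14 and 20 in the sgNTC libraries, so the sgPrdm12 replicates differed from each other more than the groups did. Mrps12 and Sars2, for mitochondrial translation, held 17 and 13 reads against 18 and 32. The heterochromatin and RNA-binding pair Cbx5/Hnrnpa1 held 39 and 20 reads against 45 and 79, and its relative Cbx3/Hnrnpa2b1 held 4 and 4 against 9 and 16. The mitochondrial chaperonin genes Hspd1 and Hspe1 held 8 and 0 reads against 5 and 16. Ranbp1, a regulator of the Ran GTPase, and Trmt2a, a tRNA methyltransferase, held 13 and 7 reads against 5 and 6. The Sirt3/Psmd13 peak, at a mitochondrial deacetylase and a proteasome subunit, held 2 and 1 reads against 10 and 8. Of the 15 pair peaks, 11 passed the count filter, 0 of these were called where 0% of all tested peaks were, and their log2 fold changes ran from -0.57 to 1.02 with a median of 0.14, against 0.02 over all tested peaks.

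The 10 shared peaks with most reads per library total were led by a start-and-end peak of a predicted gene pair, with the second gene at 960 bases. After Gm20783/LOC108167694, whose peak held 60 and 33 reads in the sgPrdm12 libraries and 46 and 122 in the sgNTC libraries, came Cbx5/Hnrnpa1. Ppp1r10, a phosphatase regulator, and Mrps18b, a mitochondrial ribosomal protein gene, had 36 and 28 reads against 32 and 59. Ddx54, an RNA helicase, and Rita1 had 20 and 19 reads against 36 and 70. The peaks that followed were Zcwpw1/Mepce with 26 and 25 reads against 27 and 59, and Anapc16/Ascc1, at a subunit of the anaphase-promoting complex, with 36 and 14 against 32 and 55. U2af2/Ccdc106, where U2af2 is a splicing factor, had 30 and 19 against 24 and 65. Polr2a, the largest subunit of RNA polymerase II, and Slc35g3 had 20 and 29 reads against 25 and 51, a start-and-end peak. Fam76b/Cep57 had 23 and 19 against 30 and 63, and Akap8/Akap8l, also a start-and-end peak, had 30 and 16 against 31 and 50. Among the 15 peaks with 3 genes, the tallest was Tbcb/Polr2i/Ovol3 with 21 and 16 reads against 19 and 40. It was followed by Rad17/Taf9/Ak6 with 20 and 14 against 17 and 34, and by Ubr7/Gon7/Gm20604 with 18 and 11 against 12 and 30. In all of these the sgPrdm12 counts come first, and counts are raw.

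Gene groups differed in how often their peak was shared. Over all protein-coding genes with a gene-end peak, 42.0% had a shared one, with 1046 genes at shared and 1451 at 1-gene peaks. In the mitochondrial ribosome group 14 of 78 genes had a shared peak and 6 a 1-gene peak, so 70.0% of those with a peak shared it. The shares were 59.4% for splicing and RNA-binding genes (19 shared and 13 at 1-gene peaks), 56.8% for the transcription machinery (21 and 16) and 51.7% for DNA repair genes (15 and 14). They were 44.4% for tRNA synthetases (8 and 10), 43.3% for the respiratory chain (13 and 17) and 39.1% for translation factors (9 and 14). Cytosolic ribosome genes went lower, with 7 shared and 19 at 1-gene peaks (26.9%), as did RNA helicases (4 and 11, 26.7%) and ubiquitin genes (6 and 28, 17.6%). Of the T cell receptor and activation genes, 3 (Map4k1, Mtor and Tap1) had a shared and 10 a 1-gene peak (23.1%). The shares were 80% for mitochondrial import (4 and 1), 63.6% for the proteasome (7 and 4) and 36.7% for chaperones (11 and 19). PRDM and methyltransferase genes had 3 and 5 (37.5%), the shared ones being Kmt2d, Men1 and Suv39h2. Kmt2d, Men1 and Mtor are counted here through start-and-end peaks. Those peaks lie near the ends of these genes and at the starts of Prkag1, Map4k2 and Exosc10. Zfp zinc finger genes (16 and 25) and vesicle traffic genes (18 and 29) lay near the overall share, at 39.0% and 38.3%. How often genes of each group have a close neighbour in the genome enters these shares, and none was tested. The lists were matched by symbol patterns, so a list can hold a gene that its name does not describe or miss one that it does. Histone genes were not counted as a group, since their symbol pattern missed most current symbols, but 4 shared peaks lay at histone genes, chosen after their values were seen. H4c1/H3c1 held 17 and 3 reads in the sgPrdm12 libraries and 15 and 21 in the sgNTC libraries. H2bc9/H3c7 held 7 and 4 against 6 and 14, H2bc18/H3c13 held 3 and 4 against 5 and 12, and H2ax/Dpagt1 held 21 and 7 against 6 and 37.

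In none of these groups did a tested shared peak pass edgeR's adjusted threshold in either direction, where 0% of all tested peaks did. Over all 1125 tested peaks, 586 had a log2 fold change above 0 and 539 below, and over the 304 tested shared peaks 162 and 142. The sign counts by group were not tested, and a peak such as Mrps12/Sars2 can count in more than 1 group. The mitochondrial ribosome group had 10 tested peaks, 9 with a log2 fold change above 0 and 1 below, with a median of 0.20 against 0.02 over all tested peaks. Its tallest members were Ppp1r10/Mrps18b and Mrpl10/Lrrc46, the second with 21 and 20 reads in the sgPrdm12 libraries and 22 and 44 in the sgNTC libraries. The transcription machinery had 18 tested peaks, 12 above and 6 below 0 (median 0.17), among them Med16/R3hdm4 with 39 and 14 reads against 17 and 55. Splicing and RNA-binding genes had 13, 4 above and 9 below (median -0.09), and vesicle traffic genes had 14, 6 above and 8 below (median -0.03). DNA repair genes had 9 tested peaks, 4 above and 5 below (median -0.12), and Xpo5/Polh, at a translesion polymerase, held 13 and 9 reads against 17 and 41. Translation factors had 8 (median -0.22), the respiratory chain 7 (median -0.08), with Ndufa11/Vmac at 19 and 9 reads against 20 and 46, and the cytosolic ribosome 5 (median -0.45), with Rps18/Vps52 at 18 and 8 against 20 and 23. Proteasome genes had 4 tested peaks (median -0.10), with Psmc5/Ftsj3 at 24 and 12 reads against 21 and 54. Chaperones had 5, 3 above and 2 below 0 (median 0.56), with Cct5/Atpsckmt at 21 and 15 reads against 19 and 50. That median is the value of 1 peak, Nkiras2/Dnajc7 (0.56 ± 1.00, 13 and 3 reads against 10 and 8). All 4 tested tRNA synthetase peaks were above 0 (median 0.29), among them S100pbp/Yars with 18 and 10 reads against 9 and 41. The RNA helicase (4 tested, median -0.21), mitochondrial import (3, median -0.02), ubiquitin (2, median 0.10) and Zfp groups (8, median -0.08) were on either side of 0. The T cell receptor group had 3 tested peaks, 1 above and 2 below 0, and in the PRDM and methyltransferase group the start-and-end peak of Map4k2 and Men1, which is not at the Men1 start, was the only tested one.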

How the data were processed

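CD8+ T cells were profiled by ATAC-seq, with 2 sgPrdm12 and 2 sgNTC libraries. The authors deposited 1 table of 3187 peaks with the raw read count of each library in each peak, a log2 mean per group and their log2 difference, per the file headers. The deposited table also holds the peak width and, as a score, the standard error of that difference; the authors' log2 values and standard errors were not used for any result. Cutadapt, Bowtie2, Picard, MACS2, DiffBind, HOMER, ChIPseeker and build GRCm38 are named in the submitters' processing notes; the sources used here do not give versions, order or whether replicates were pooled for peak calling. The table lists called peaks, so reads elsewhere do not enter any value.

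Peaks were matched to RefSeq gene spans (GRCm38), and strand and start came from the RefSeq promoter table (GRCm38.p6), which lists 17491 of 21896 protein-coding genes. Counts were tested with edgeR 4.0.16 (TMM scaling, default count filter, robust quasi-likelihood F test, R 4.3.3) over 1125 peaks, with Benjamini-Hochberg adjustment at 0.05, and with DESeq2 1.42.0 as an alternative. Batch ratios added 0.5 to each count. Group differences of a single value used an exact permutation test over 4 libraries, and differences between peak classes an exact sign-flip test. Shares have 95% Wilson intervals, which cover counting error only. Library totals ran from 20427 to 58068 reads in peaks. On simulated data for this comparison (1125 peaks, 100 changed at each fold), 97% of 4-fold and 42% of 2-fold changes were recovered, with 6 false calls. All simulated peaks had a common dispersion and many were changed, so recovery can be lower where few peaks change.

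The labels put replicate 1 of both groups in batch 1 and replicate 2 in batch 2, so the numbers pair the libraries; deviations of same-numbered libraries had a correlation of 0.058 over 1125 peaks. The members, gene lists and pair list were chosen with earlier results of these data known, and 1 gene pair is not reported here. Peaks are named if they were called, had one of the 5 smallest unadjusted p in either direction, were among the 10 with the highest read share, belonged to the pair list, lay nearest the distance limit, had 3 genes (the 3 highest), were among the 2 highest of a gene list, or had a log2 ratio over 1 in both batches. Of those named by a gene list, examples are given. Alternatives were other scalings, no filter, a replicate block, other distance limits, no predicted genes and each library left out.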

Additional observations from a re-analysis of the deposited data

Results flagged for a closer look

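The share of reads in shared peaks was 1.10 percentage points higher in sgPrdm12 than in sgNTC in batch 1 (21.7% against 20.6%) and changed by -2.57 percentage points in batch 2 (19.6% against 22.2%). It stands here because the 2 batches moved in opposite directions, and this difference between batches was not tested. The share of peaks away from gene ends moved the other way, by -3.52 percentage points in batch 1 and 9.42 in batch 2, and its part in the result was not tested.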

How the results depend on the processing

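No shared peak was called under any scaling, filter, tool or left-out library tried, and the replicate block, which pairs the libraries by batch, also gave 0. At an unadjusted p of 0.05, all tested peaks numbered 57 in edgeR, 47 with the block, 109 with no count filter (of 3186) and 28 in DESeq2. Shared peaks numbered 17, 15, 28 (of 524) and 3 in the same order.

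The share difference of -0.738 percentage points became 0.226 when only gene-end reads were counted, and leaving out 1 library gave -1.78 to 0.301. The log2 ratio of shared over 1-gene reads in batch 1 was 0.0059, against -0.023 with a limit of 500 bases and -0.015 with 2000; in batch 2 it was 0.025 and became -0.011 with 2000 bases. The width difference of 40.5 bases was 26 with 2000 bases. The cause was not tested. Shared peaks as a whole held more reads than 1-gene peaks under all alternatives run. The start-and-end peaks alone did not in every measure. Over 1-gene 5′ ends their mean log2 ratio was 0.15 by mean reads per peak and -0.13 by median reads per peak.

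Of 188 alternatives over 21 single peaks, 11 reversed the sign, all in pairs with a log2 fold change under its SE. Atm/Npat was 0.011 with the block and -0.48 to 0.25 with a library left out; Snrpd2/Qpctl was -0.013 with library totals only and -0.032 with no count filter. With a library left out, Snrpd2/Qpctl ran from -0.091 to 0.11, Mrps12/Sars2 from -0.025 to 0.30, Tap1/Psmb9 from -2.79 to 0.029 and Mcm4/Prkdc from -0.63 to 0.39. The comparison of opposite-strand peaks with 1-gene 5′ ends was chosen after seeing the data. Depth limits the precision at single peaks, with a median of 7 reads per shared peak in sgPrdm12 replicate 2.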
